A study of Mus musculus with 9 samples.

Results

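The 10 genes described here encode neuronal microtubule-associated proteins (Map1a, Map1b, Map2, Mapt), the doublecortins (Dcx, Dclk1) and the stathmins (Stmn1, Stmn2, Stmn3, Stmn4). They were chosen by symbol from the 40773 genes of the count table, and all 10 had enough counts to be tested. The choice of these genes, and of the gene lists below, was made with earlier results of these data known. Their counts beside the shares over all genes are therefore not those of sets fixed in advance. The cells were mouse embryonic cortical neurons, labelled as brain, treated with a non-charged peptide amphiphile (PA) or with an ion-charged nanostructure (ICN) carrying Na+ or K+. All 3 groups had 3 libraries (replicates 1 to 3) and were made in the same way, with 80 µl at 200 µM from a 5 mM stock laid on the settled cells and 50% of the medium changed at 48 h. RNA was taken at 72 h, per the series design. The labels call the replicates biological but name no strain, embryonic day or dissection, so a p-value here reflects the spread between libraries, which may be partly technical.

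Microtubules are polymers of alpha- and beta-tubulin that support axons and dendrites and carry their transport. Microtubule-associated proteins bind along the polymer and stabilise or bundle it. Doublecortins bind between the strands of the polymer and are needed for the migration of young cortical neurons. Stathmins do the opposite, binding free tubulin and promoting shrinkage, and are abundant in growing neurites.

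Library totals ranged from 17924988 to 22906950 counts. Levels are given as CPM (counts per 1000000 of the TMM-scaled library, where TMM is a scaling that assumes most genes do not change). The 10 genes together summed to between 16835 and 17086 CPM in PA, between 16998 and 17094 with Na+ ICN and between 15431 and 15723 with K+ ICN. All 20 pan-neuronal marker genes were detected, with summed levels of 7930 to 7960 CPM in PA, 7695 to 7818 with Na+ ICN and 7569 to 7648 with K+ ICN. The 15 astrocyte markers summed to 902 to 945, 1080 to 1139 and 1041 to 1066 CPM, and the 12 progenitor markers to 984 to 1029, 1109 to 1176 and 1162 to 1199 CPM, in the same order of groups. The 9 fibroblast and mural markers summed to 165 to 181, 224 to 228 and 236 to 256 CPM. The 10 oligodendrocyte markers summed to 157 to 187 CPM over all libraries, with Mog at 0 in PA and Na+ ICN. The 10 microglial and 8 endothelial markers stayed between 10.02 and 19.7 CPM, with Cldn5 and Cdh5 at 0 in PA. The part that these shifts in other cells' markers play in the results was not tested, and in bulk RNA fewer cells of a type and less RNA per cell cannot be told apart.

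Per kilobase of the longest annotated transcript, Stmn1 had the highest level in PA, at 1679 ± 19.4 CPM per kilobase (SD, n = 3). Mapt followed at 541 ± 8.82 and Map1b at 421 ± 10.1 CPM per kilobase. Stmn2 (357 ± 6.65) and Stmn3 (355 ± 2.98) overlapped each other, as did Map2 (283 ± 6.26) and Stmn4 (276 ± 3.93), all in CPM per kilobase. Dcx (221 ± 6.01), Dclk1 (152 ± 1.53) and Map1a (34.6 ± 1.04 CPM per kilobase) were lowest. With the union of all exons as the length, only Stmn1, Mapt, Dclk1 and Map1a kept their place, and Stmn3 (355 ± 2.98) stood above Map1b (313 ± 7.56 CPM per kilobase). The counts add up all isoforms of a gene, so products such as the kinase-bearing and short forms of Dclk1, or the tau isoforms, are not separated.

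With K+ ICN, 6 of the 10 genes fell against PA and none rose, at an edgeR adjusted p under 0.05. They were Dcx, Map1b, Map2, Map1a, Stmn1 and Dclk1, to between 0.870 and 0.931 of the PA level. Mapt and Stmn3 lay below PA in every library without passing, and Stmn2 and Stmn4 overlapped PA. Of all 15183 genes tested, 15.8% passed in this comparison, 7.68% lower and 8.15% higher. Abundant genes fell more often: of the 344 genes with a mean of at least 380.1 CPM, the mean of the least abundant of the 10, 30.2% fell and 12.8% rose. The number risen was also 0 with DESeq2 and with limma voom, and 0 at an unadjusted p under 0.05. The median log2 fold change of the 10 was -0.11, beside 0.0031 over all genes tested.

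Dcx, doublecortin, marks migrating and newly formed neurons (chromosome X, 143855842 to 143933396, GRCm38). Its level was 1943, 2048 and 2022 CPM in PA replicates 1 to 3, 1996, 2062 and 2105 CPM with Na+ ICN, and 1724, 1770 and 1738 CPM with K+ ICN. The 3 K+ ICN libraries were the lowest of the 9, and PA and Na+ ICN overlapped. Dcx fell to 0.870 of PA with K+ ICN (log2 fold change -0.20, SE 0.0247, edgeR adjusted p = 2.1e-08). This was the largest fall among the 10.

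Map1b, which is high in growing axons early in development (chromosome 13, 99421464 to 99516602), read 4886, 5103 and 4908 CPM in PA, 4850, 4993 and 5034 CPM with Na+ ICN, and 4293, 4523 and 4456 CPM with K+ ICN. Again the K+ ICN libraries lay below the other 6, which overlapped. With K+ ICN it stood at 0.891 times its PA level, a fall (log2 -0.17 with an SE of 0.0229, edgeR adjusted p = 2.65e-07).

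Map2, the main microtubule-associated protein of dendrites (chromosome 1, 66175202 to 66442583), read 1728, 1802 and 1787 CPM in PA. It read 1704, 1692 and 1756 CPM with Na+ ICN, and 1571, 1604 and 1576 CPM with K+ ICN. The K+ ICN libraries were below all others here too. Map2 fell to 0.893 times the PA level (log2 -0.16 with an SE of 0.0243, edgeR adjusted p = 1.44e-06). Dcx, Map1b and Map2 passed against PA under each of the 18 alternatives tried. Some of these 18 left out a library of Na+ ICN, the group outside this comparison, and so could change little.

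**Figure D1:**
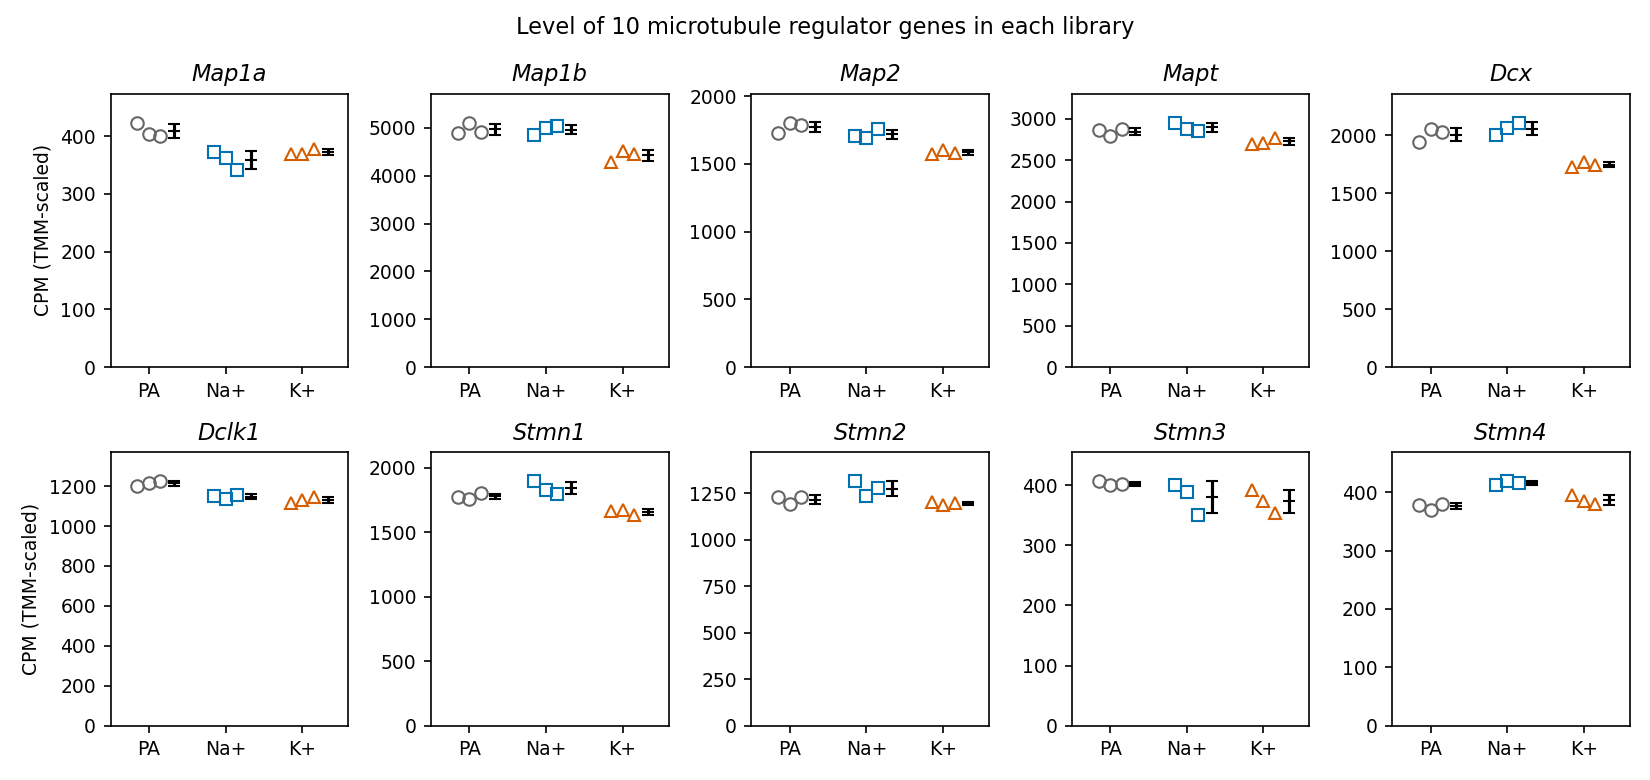
Level of each gene in CPM (vertical axes start at 0 and differ between panels) in the 3 PA libraries (circles), the 3 Na+ ICN libraries (squares) and the 3 K+ ICN libraries (triangles), with the mean and SD at the right of each group. The K+ ICN libraries of Dcx (1724 to 1770 CPM), Map1b (4293 to 4523 CPM) and Map2 (1571 to 1604 CPM) lie below the other 6, and the Na+ ICN libraries of Stmn4 (412 to 419 CPM) lie above them.

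The promoters of these 3 genes are shown because the genes moved together with K+ ICN. They were taken from RefSeq (GRCm38.p6), where 6 of the 10 genes matched (Map1a, Map1b, Map2, Dcx, Dclk1 and Stmn3), as 300 bases from 250 before to 50 after the start, on the gene's strand. For Dcx, which has 2 listed starts, the upstream one is shown. Capitals mark TATAAA in Dcx and Map1b and, in Map2, the reverse complement of GGACAG, part of the element bound by the neuronal gene repressor REST. The windows are chrX:143933170-143933469 (minus strand), chr13:99516553-99516852 (minus strand) and chr1:66175079-66175378 (plus strand).
Dcx: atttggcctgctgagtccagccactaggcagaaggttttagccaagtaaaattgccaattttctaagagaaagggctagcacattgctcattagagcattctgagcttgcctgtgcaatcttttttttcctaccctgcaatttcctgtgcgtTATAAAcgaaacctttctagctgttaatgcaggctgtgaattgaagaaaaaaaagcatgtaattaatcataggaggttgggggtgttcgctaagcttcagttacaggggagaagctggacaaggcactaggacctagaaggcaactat
Map1b: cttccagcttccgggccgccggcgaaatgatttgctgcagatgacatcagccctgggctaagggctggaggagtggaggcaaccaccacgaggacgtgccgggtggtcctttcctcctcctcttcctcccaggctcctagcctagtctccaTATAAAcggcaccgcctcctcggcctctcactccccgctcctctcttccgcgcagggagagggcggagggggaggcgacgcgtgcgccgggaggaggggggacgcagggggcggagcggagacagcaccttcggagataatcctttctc
Map2: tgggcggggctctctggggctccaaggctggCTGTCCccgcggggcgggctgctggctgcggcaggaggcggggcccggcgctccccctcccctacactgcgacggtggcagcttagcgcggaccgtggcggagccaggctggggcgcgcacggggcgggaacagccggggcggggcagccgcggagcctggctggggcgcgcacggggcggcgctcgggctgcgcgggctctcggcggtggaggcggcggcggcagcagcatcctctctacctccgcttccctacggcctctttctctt
The Dcx window was 43.0% G and C with 3 CG pairs, Map1b 65.7% with 23 pairs and Map2 77.7% with 37 pairs, beside medians of 52.7% and 7 pairs over 32841 promoters. TATAAA began at position -98 from the listed start in Dcx and -99 in Map1b, and 13.6% of all promoters held it on either strand. The gene spans printed above for Dcx and Map2 reach further upstream than the starts used here. The TATAAA of Dcx thus lies inside its printed span, and the 2 positions are not read as alike. The GGACAG match of Map2 began at -219, and 22.2% of promoters held one. Also searched on both strands were TGACGTCA, held by 1.79% of promoters, and its part TGACG, held by 20.8%. Further motifs were TGANTCA, held by 7.81%, then ACAAAG, held by 18.7%, and AACAAT, held by 10.7%. These 5 had no match in the 3 windows shown, but the window of the other listed Dcx start (chrX:143933075-143933374) held ACAAAG at -8. Among the windows not shown, TGANTCA matched 2 times in a window of Dclk1 (chr3:55461478-55461777), which also fell with K+ ICN. ACAAAG matched in Stmn3, at -113. The window of Map1a and the other window of Dclk1 held none of the 5. CANNTG, held by 72.3%, matched in Map1b at -213 and in no other window shown. It also matched in Map1a, Dclk1 and Stmn3.

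Map1a, the family member that increases as neurons mature (chromosome 2, 121289590 to 121310832), was lower with both ions. Its level was 423, 403 and 401 CPM in PA, 373, 362 and 341 CPM with Na+ ICN, and 369, 369.6 and 378 CPM with K+ ICN. All 6 ICN libraries lay below the 3 PA libraries. The fall was to 0.910 times the PA level with K+ ICN (log2 -0.14 with an SE of 0.0317, edgeR adjusted p = 0.00151). The exons of Map1a share 272 bases with Ppip5k1 on the other strand, whose counts came to 4.86% of those of Map1a, and no source used here states whether the counting used strand.

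Stmn1, stathmin, is found in young neurons and also in dividing cells (chromosome 4, 134468320 to 134473843). It read 1776, 1762 and 1802 CPM in PA, 1895, 1831 and 1800.5 CPM with Na+ ICN, and 1668, 1672 and 1632 CPM with K+ ICN. The K+ ICN libraries were the lowest of the 9, and Na+ ICN replicate 3 overlapped PA. Stmn1 fell to 0.931 times the PA level with K+ ICN (log2 -0.10 with an SE of 0.0242, edgeR adjusted p = 0.00154).

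Dclk1, a doublecortin joined to a kinase (chromosome 3, 55242303 to 55539068), read 1200.1, 1216 and 1224 CPM in PA. It read 1150.4, 1135 and 1157 CPM with Na+ ICN, and 1115, 1132 and 1143 CPM with K+ ICN. Both ICN groups lay below PA and overlapped each other. The fall with K+ ICN was to 0.931 times the PA level (log2 -0.10 with an SE of 0.0245, edgeR adjusted p = 0.00188).

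Mapt, tau, the main such protein of axons (chromosome 11, 104229409 to 104332090), read 2863, 2792 and 2878 CPM in PA. It read 2950, 2880 and 2853 CPM with Na+ ICN, and 2699, 2706 and 2768 CPM with K+ ICN. The K+ ICN libraries lay below the other 6, but against PA the difference stayed just short of the threshold (log2 -0.062, SE 0.0227, edgeR adjusted p = 0.0541), passing in 10 of 18 alternatives with adjusted p from 0.00404 to 0.962.

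Stmn3, a membrane-bound neuronal stathmin (chromosome 2, 181306459 to 181314500), had the widest spread of the 10 in both ICN groups, with a coefficient of variation of 6.90% with Na+ and 5.28% with K+. Its level was 406, 399.8 and 402 CPM in PA, 400.2, 389 and 350.4 CPM with Na+ ICN, and 393, 373 and 353 CPM with K+ ICN. It did not pass against PA with K+ ICN (log2 -0.11, SE 0.0433, edgeR adjusted p = 0.0988), although 7 of 18 alternatives gave an adjusted p under 0.05, over a range of 0.0048 to 0.46. Stmn2, a stathmin of growth cones that is anchored to membranes (chromosome 3, 8509527 to 8561604), read 1231, 1191 and 1229 CPM in PA and 1203, 1189 and 1199 CPM with K+ ICN. These overlapped, with an interval of the log2 difference from -0.075 to 0.028 (95%).

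Against PA, K+ ICN libraries lay wholly below in 8 of the 10 genes, where 15.8% of all genes did so and 32% did not overlap in either direction. Of the 344 abundant genes, 42.7% did. When libraries were scaled by the summed counts of the 20 pan-neuronal genes in place of TMM, 3 genes fell (Dcx, Map1b, Map2) and 1 rose (Stmn4). Map1a, Stmn1 and Dclk1 lost the call under that scaling, with edgeR adjusted p = 0.0875, 0.232 and 0.252. That scaling moved the call split over all genes from 1237 higher and 1166 lower to 2062 and 511. With TMM, 6 of the 20 pan-neuronal genes themselves fell and 2 rose in this comparison, beside 7.68% lower and 8.15% higher among all genes.

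With Na+ ICN, 2 of the 10 genes fell against PA (Map1a and Dclk1) and 1 rose (Stmn4). Of all genes tested, 10.9% passed, 5.22% lower and 5.63% higher, and of the 344 abundant genes 14.8% fell and 17.2% rose. The median log2 fold change of the 10 was 0.012, beside 0.0036 over all genes. Map1a fell to 0.877 times the PA level (log2 -0.19 with an SE of 0.0319, edgeR adjusted p = 3.22e-05), as seen in its 3 libraries above, and passed in all 18 alternatives. Dclk1 fell to 0.946 times the PA level (log2 -0.081 with an SE of 0.0245, edgeR adjusted p = 0.0244).

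Stmn4, a brain stathmin of the membrane-bound subfamily (chromosome 14, 66344210 to 66361680), read 378, 369.9 and 379.96 CPM in PA. It read 412, 419 and 416 CPM with Na+ ICN, and 395, 385 and 379 CPM with K+ ICN. The Na+ ICN libraries were the highest of the 9, and K+ ICN overlapped PA. The rise with Na+ ICN was 1.11-fold (log2 0.14, SE 0.0294, edgeR adjusted p = 0.000506), and it passed in all 18 alternatives. Stmn2 read 1315, 1234 and 1280.1 CPM with Na+ ICN, all above PA, but did not pass (log2 0.069, SE 0.0256, edgeR adjusted p = 0.0787).

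The 95% intervals of the log2 difference with Na+ ICN ran from -0.048 to 0.044 for Map1b, from -0.095 to 0.0030 for Map2, from -0.021 to 0.071 for Mapt and from -0.014 to 0.086 for Dcx. Groups did not overlap in 2 genes above PA and 2 below, where 13.5% and 13.2% of all genes did so, 26.7% in either direction. The count fallen was 1 without PA replicate 2, without PA replicate 3 or without Na+ ICN replicate 2, since Dclk1 then did not pass (edgeR adjusted p = 0.0681, 0.104 and 0.107). With upper-quartile scaling 3 rose, Stmn1 and Stmn2 beside Stmn4 (edgeR adjusted p = 0.0485 and 0.0149 for the first pair), and 1 fell. Pan-neuronal scaling also gave 3 and 1. Over all genes the split moved the same way, from 855 higher and 793 lower to 1042 and 552 with upper-quartile scaling and 1208 and 438 with pan-neuronal scaling. Without Na+ ICN replicate 2, Stmn2 passed (edgeR adjusted p = 0.0318), so that 2 rose.

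**Figure D2:**
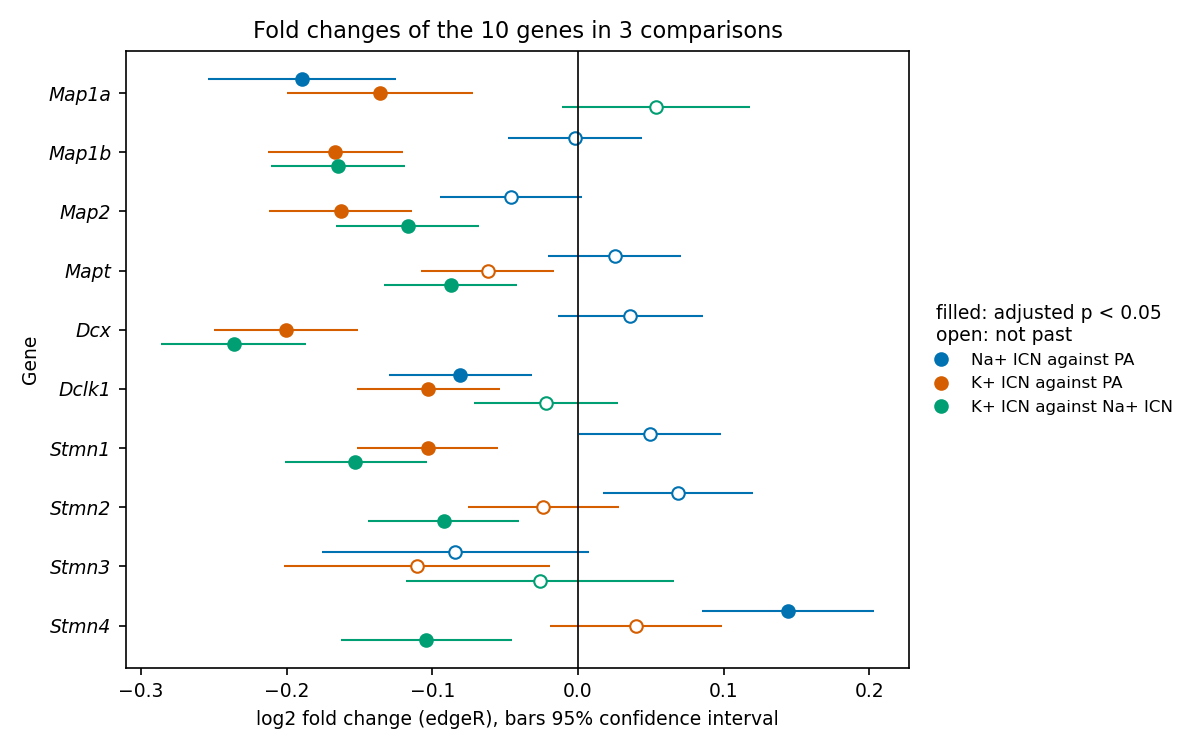
Log2 fold change (horizontal axis) of each gene in Na+ ICN against PA, K+ ICN against PA and K+ ICN against Na+ ICN, from edgeR, with 95% confidence intervals as bars and filled points for an adjusted p under 0.05. K+ ICN against PA runs from -0.20 (Dcx) to 0.040 (Stmn4), and Na+ ICN against PA from -0.19 (Map1a) to 0.14 (Stmn4).

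Set directly against Na+ ICN, K+ ICN had lower levels of 7 of the 10 genes and a higher level of none. They were Dcx, Map1b, Map2, Mapt, Stmn1, Stmn2 and Stmn4. Of all genes tested, 6.58% passed, 3.25% lower and 3.33% higher, and of the 344 abundant genes 29.4% were lower and 6.1% higher. DESeq2 and limma voom also gave 0 of the 10 higher, as did an unadjusted p under 0.05. This comparison tests the difference between the ions. It shares its libraries with the comparisons against PA, which in turn share the PA libraries.

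Dcx was at 0.849 of the Na+ ICN level (log2 -0.24, SE 0.0247, edgeR adjusted p = 8.56e-10), the 29th smallest p of the 15183 genes. Map1b was at 0.892 (log2 -0.16, SE 0.0229, edgeR adjusted p = 7.39e-07), Stmn1 at 0.900 (edgeR adjusted p = 8.93e-06) and Map2 at 0.922 (edgeR adjusted p = 0.000748). These 4 passed in all 18 alternatives. Smaller differences were found for Stmn4, at 0.930, Stmn2, at 0.938, and Mapt, at 0.941 of the Na+ ICN level (edgeR adjusted p = 0.0184, 0.0166 and 0.00929).

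Map1a, Dclk1 and Stmn3 did not pass between the ions, and their log2 intervals (95%) ran from -0.011 to 0.118, from -0.071 to 0.027 and from -0.118 to 0.066. The 7 genes that were lower were also the 7 whose K+ ICN libraries lay wholly below those of Na+ ICN, as in 11.1% of all genes (22% in either direction) and 41.3% of the abundant ones. Without K+ ICN replicate 2 the count was 4, with Mapt, Stmn2 and Stmn4 at edgeR adjusted p = 0.0686, 0.0915 and 0.0768. It was also 4 with pan-neuronal scaling. Without Na+ ICN replicate 1 it was 5.

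Ratios of counts between 2 genes in the same library do not depend on library scaling. Of 7 ratios in 3 comparisons, 16 of 21 had groups that did not overlap. Each was at the smallest p that 3 against 3 libraries allow (exact two-sided permutation test, p = 0.1, adjusted over 21 to 0.131). No ratio could therefore pass. The share over other gene pairs was not computed, so the count of 16 is not read as unusual. All ratios but Map1a to Map1b are over Dcx or Stmn1, and the comparisons share libraries, so the 21 are not separate results. Dcx and Stmn1 were themselves lower with K+ ICN than in both other groups, which raises any ratio over them. The ratios thus restate the fold changes above, and neuronal maturity was not tested. The ratio of Map2 to Dcx, a dendritic to an immature marker, had a mean log2 value of -0.18 ± 0.0076 in PA, -0.26 ± 0.029 with Na+ ICN and -0.14 ± 0.0044 with K+ ICN (SD, n = 3). PA thus lay between the ions, with no overlap. Dclk1 to Dcx kept the same order, at -0.72 ± 0.028 in PA, -0.84 ± 0.039 with Na+ ICN and -0.63 ± 0.021 with K+ ICN. Mapt to Dcx was 0.51 ± 0.056 in PA, 0.49 ± 0.063 with Na+ ICN and 0.64 ± 0.030 with K+ ICN, where K+ ICN lay above the other groups.

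The ratio of Map1a to Map1b, which increases in maturing brain, was -3.60 ± 0.068 on the log2 scale in PA, -3.79 ± 0.091 with Na+ ICN and -3.57 ± 0.038 with K+ ICN. Na+ ICN lay below both other groups, and K+ ICN overlapped PA. Among stathmins, Stmn4 to Stmn1 was -2.24 ± 0.010 in PA, -2.15 ± 0.048 with Na+ ICN and -2.10 ± 0.021 with K+ ICN, so that both ICN groups lay above PA. Stmn2 to Stmn1 was -0.55 ± 0.018, -0.53 ± 0.039 and -0.47 ± 0.024 in the same order, with K+ ICN above the others. Stmn3 to Stmn1 was -2.14 ± 0.019, -2.28 ± 0.071 and -2.15 ± 0.061, with Na+ ICN below the others.

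**Figure D3:**
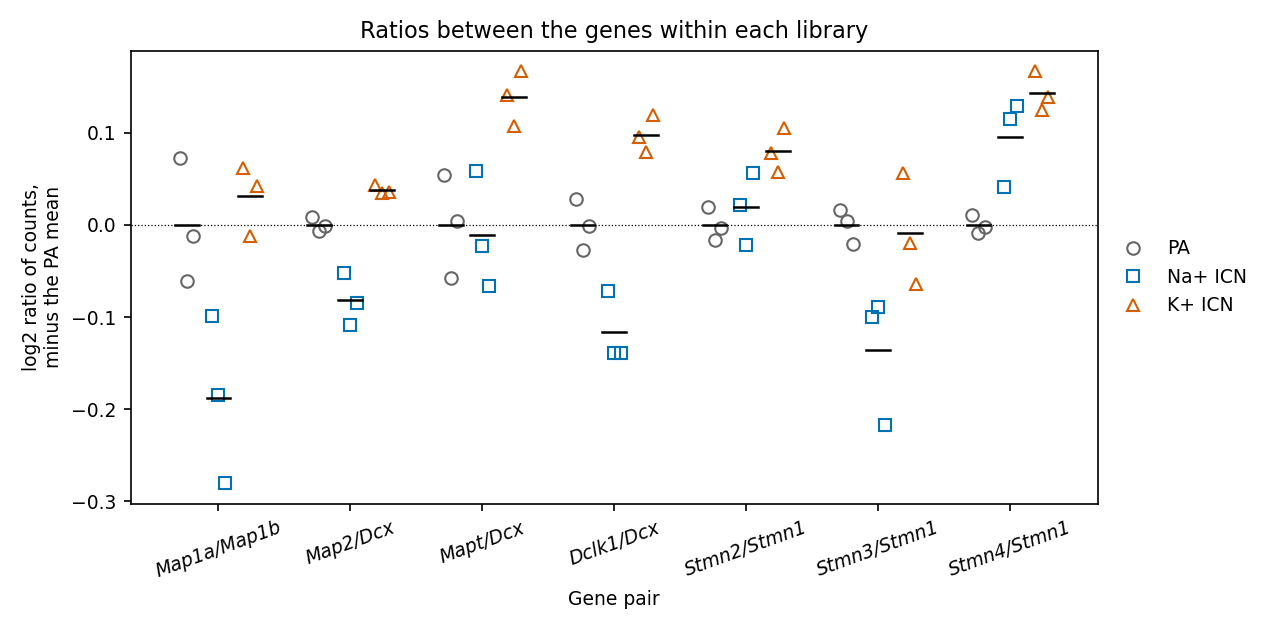
Log2 ratio of counts between 2 of the genes within each library, minus the mean of the PA libraries (vertical axis), for 7 pairs, with bars at group means. For Map2 to Dcx the PA libraries lie between Na+ ICN (difference of means -0.082) and K+ ICN (0.038), and for Map1a to Map1b the Na+ ICN libraries lie lowest (-0.19).

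Over the 9 libraries, the log2 levels of pairs of these genes had correlations from -0.785 (Map1a with Stmn4) to 0.969 (Map1b with Dcx), with a median of 0.421 over 45 pairs. These describe points that share groups and libraries. Map1b with Map2 gave 0.931 and Mapt with Stmn1 0.915. Of 7819 other genes with a mean of at least 20 CPM, the one most alike over the 9 libraries was Runx1t1 for Dcx (r = 0.975), Rps6ka5 for Map1b (0.985), Akap9 for Map2 (0.987) and Tomm22 for Mapt (0.982). It was Shisa6 for Dclk1 (0.970), Akt1 for Stmn1 (0.981), Acat2 for Stmn2 (0.954), Arpc4 for Stmn3 (0.964) and Rps27a for Stmn4 (0.971).

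Other genes that act on microtubules were counted in 7 lists of 117 genes, of which 112 were tested. With K+ ICN against PA 29 fell and 6 rose (median log2 -0.054), with Na+ ICN against PA 8 fell and 8 rose (median -0.0091), and between the ions 16 were lower and 2 higher with K+ ICN (median -0.026). Over all genes tested the shares lower and higher were 7.68% and 8.15% with K+ ICN, 5.22% and 5.63% with Na+ ICN, and 3.25% and 3.33% between the ions. Of the 344 abundant genes, 30.2%, 14.8% and 29.4% were lower in the same order of comparisons. Many genes of the lists lie below the 380.1 CPM of that class, such as Camk4 (134 CPM), Jakmip1 (64.2 CPM) and Katna1 (11.2 CPM). Its shares are therefore not a matched background for the lists. Whether the counts of these lists are particular to microtubule genes was not tested. Of 22 other microtubule-associated and navigator proteins 9 fell and 1 rose with K+ ICN, among them the plus-end protein Nav1, to 0.849 times the PA level (log2 -0.24 with an SE of 0.0313, edgeR adjusted p = 1.17e-07), and Jakmip1, to 0.776 (edgeR adjusted p = 3.89e-06). With Na+ ICN, Map9 fell to 0.878 and Mtus1 rose 1.24-fold (edgeR adjusted p = 4.3e-05 and 0.00255), and 3 in all fell and 2 rose. Dclk3, a relative of Dclk1 at a mean of 12.1 CPM, was at 0.538 of Na+ ICN with K+ ICN (log2 -0.89, SE 0.132, edgeR adjusted p = 2.66e-06), and Jakmip1 at 0.786 (edgeR adjusted p = 2.23e-05).

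Of 22 proteins of microtubule ends, 6 fell and 1 rose with K+ ICN, beside 7.68% lower among all genes and 30.2% among the abundant ones. Slain1, which promotes growth at plus ends, fell to 0.832 of PA, and Apc, a plus-end tumour suppressor, to 0.888 (edgeR adjusted p = 3.31e-05 and 4.87e-06). With Na+ ICN Apc fell to 0.941 and Clasp2, a plus-end stabiliser, rose 1.08-fold (edgeR adjusted p = 0.0276 and 0.0111). Between the ions 3 of these 22 were lower with K+ ICN, including Slain1 at 0.816 and Clasp2 at 0.931 (edgeR adjusted p = 1.23e-05 and 0.0308). Of all genes 3.25% were lower between the ions, and of the abundant ones 29.4%. Of 5 collapsin response mediators, which bind tubulin in growing axons, 3 fell with K+ ICN, including Crmp1 to 0.903 and Dpysl5 to 0.929 of PA (edgeR adjusted p = 1.08e-05 and 0.00103). With Na+ ICN Dpysl3 rose 1.07-fold and Dpysl4 fell to 0.865 (edgeR adjusted p = 0.000719 and 0.00462). Of these 5, 4 were lower with K+ ICN than with Na+ ICN, including Crmp1 at 0.895 and Dpysl3 at 0.949 (edgeR adjusted p = 4.52e-06 and 0.016).

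Of 23 kinases and phosphatases with microtubule proteins among their substrates or in their pathways, 8 fell with K+ ICN and 3 fell and 1 rose with Na+ ICN. The shares lower were 7.68% and 5.22% among all genes and 30.2% and 14.8% among the abundant ones, and with Na+ ICN 5.63% of all genes were higher. The calcium-dependent kinase Camk4 fell to 0.833 of PA with K+ ICN and to 0.891 with Na+ ICN (edgeR adjusted p = 3.37e-06 and 0.0045). The calcineurin subunit Ppp3ca fell to 0.861 and 0.920 (edgeR adjusted p = 3.44e-06 and 0.0128). Cdk5r1, the activator of the tau and doublecortin kinase Cdk5, was lower with K+ than with Na+, at 0.836 (log2 -0.26, SE 0.029, edgeR adjusted p = 4.83e-09). It was the 1 gene of this list to be so, where 3.25% of all genes and 29.4% of the abundant ones were lower.

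Of 11 severing and depolymerizing proteins, Kif18a (1.36-fold) and the katanin Katna1 (1.30-fold) rose with K+ ICN (edgeR adjusted p = 0.0083 and 0.0298). Their means were 12.7 and 11.2 CPM. Kif2a, a depolymerizing kinesin at a mean of 198.5 CPM, was counted above with the other microtubule-associated proteins. It fell to 0.901 of PA with K+ ICN (edgeR adjusted p = 0.00134). Among all genes 8.15% were higher and 7.68% lower with K+ ICN, 5.63% and 5.22% with Na+ ICN, and 3.33% and 3.25% between the ions. Of 10 dynein genes and regulators, the lissencephaly protein Pafah1b1 fell to 0.932 of PA and Nde1 rose 1.25-fold with K+ ICN (edgeR adjusted p = 0.00538 and 0.0391). Nde1 also rose 1.27-fold with Na+ ICN, and Ndel1 was 1.13-fold higher with K+ than with Na+ (edgeR adjusted p = 0.0381 and 0.0259). Of 19 tubulin-modifying enzymes, 1 rose and 2 fell with K+ ICN, beside 8.15% higher and 7.68% lower among all genes. The polyglutamylase Ttll5 rose 1.23-fold, the deglutamylase Agbl3 fell to 0.701 and the carboxypeptidase Vash2 fell to 0.922 (edgeR adjusted p = 0.0165, 0.0333 and 0.0397). With Na+ ICN Ttll5 rose 1.22-fold and Vash2 rose 1.09-fold (edgeR adjusted p = 0.0315 and 0.0427). Vash2 and Vash1 were lower with K+ than with Na+, at 0.848 and 0.908 (edgeR adjusted p = 3.33e-05 and 0.0047).

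**Figure D4:**
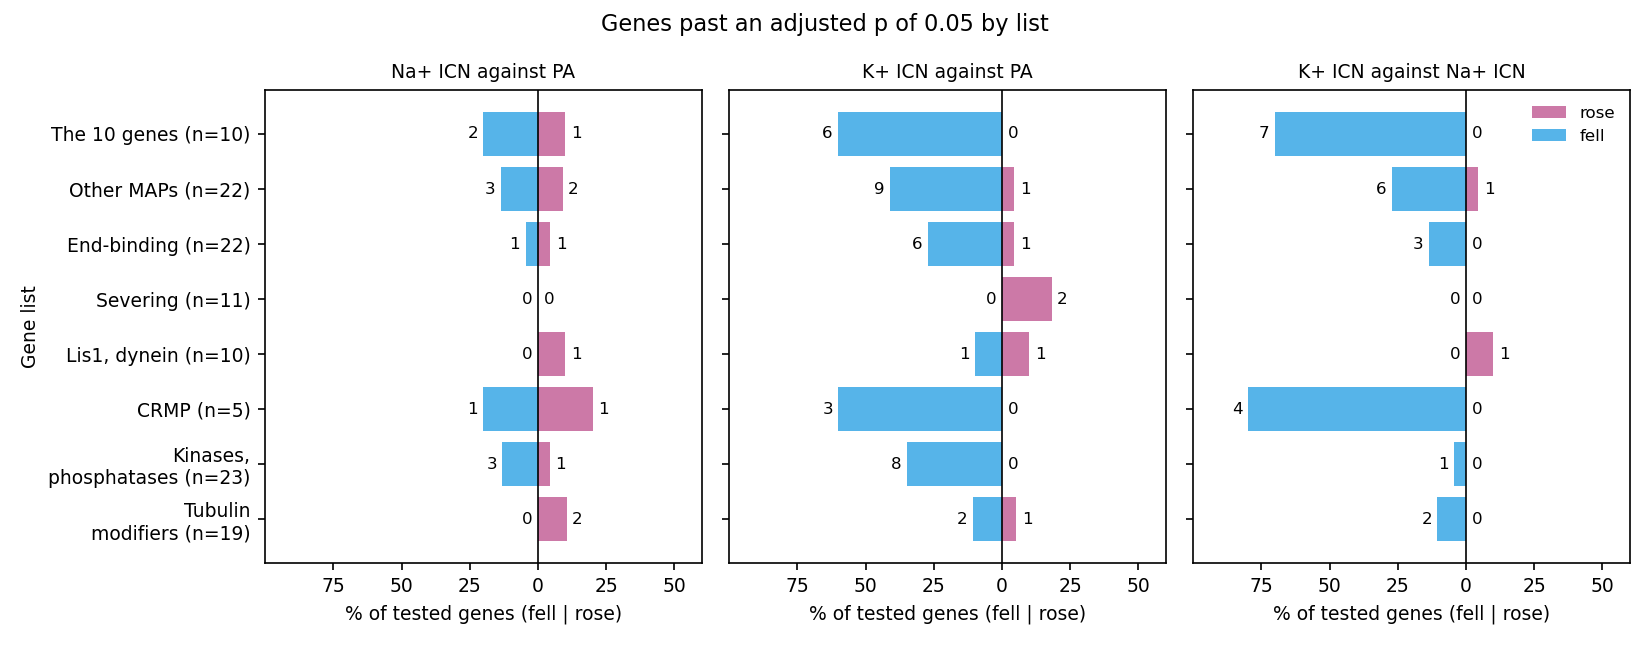
Share of tested genes (horizontal axis, percent) that fell (left) or rose (right) at an edgeR adjusted p under 0.05 in each comparison, for the 10 genes and the 7 lists of other microtubule genes, with the numbers of genes beside the bars. The 10 genes have 6 lower in K+ ICN against PA and 7 lower in K+ ICN against Na+ ICN, and the other microtubule-associated proteins 9 and 6 of 22.

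The tubulins that these proteins bind included 13 tested genes, of which 6 fell and 2 rose with K+ ICN against PA and 1 fell and 5 rose with Na+ ICN. Among all genes 7.68% were lower and 8.15% higher with K+ ICN, and 5.22% and 5.63% with Na+ ICN, while 30.2% of the abundant genes were lower with K+ ICN. Tubb2b rose 1.09-fold with Na+ ICN, as Stmn4 did, and Tuba1b 1.08-fold (edgeR adjusted p = 0.00015 and 0.0015). With K+ ICN the neuronal Tubb3 fell to 0.825 and Tubb5 to 0.912 of the PA level (edgeR adjusted p = 2.64e-09 and 1.79e-05). The 2 tubulins that rose with K+ ICN were Tubb6, 1.73-fold, and Tuba4a, 1.32-fold (edgeR adjusted p = 0.000104 and 0.00329), both named after their values were seen. Their means were low, at 8.19 and 16.05 CPM. Tubb6 also rose with Na+ ICN, 1.40-fold, and did not pass between the ions (edgeR adjusted p = 0.0329 and 0.256). Against Na+ ICN, 6 of the 13 were lower with K+ ICN and 1, Tuba4a, was higher (1.42-fold, edgeR adjusted p = 0.000511). Among all genes 3.25% were lower and 3.33% higher between the ions, and among the abundant ones 29.4% and 6.1%. K+ ICN held Tubb2b at 0.842 and Tubb3 at 0.837 (edgeR adjusted p = 1.72e-10 and 3.14e-08), values close to the 0.849 of Dcx.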

How the data were processed

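For 9 mRNA libraries the authors deposited unnormalized read counts per gene symbol. Trim Galore, STAR, RSEM and the build GRCm38 are named, per the submitters' processing notes. No source used here states which tool made the counts, with which annotation, or whether strand was used. The members and lists were chosen with earlier results of these data known.

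The software was edgeR 4.0.16 under R 4.3.3. Genes kept by filterByExpr with a count minimum of 10 (15183, with 99.93% of counts) entered a quasi-likelihood fit (robust option, TMM scaling) over the 9 libraries together, and Benjamini-Hochberg values were taken over all genes tested, with a threshold of 0.05. Libraries of a group were further apart than sampling alone gives (chi-square per degree of freedom 3.23 to 4.14), so none were merged. Alternatives used DESeq2 1.42.0, limma 3.58.1 (voom), other scalings and filters, a replicate term, 6-library fits and each library left out. For every comparison these include leaving out the libraries of the group not compared, which keeps the compared libraries unchanged. From each list, the text names genes that passed at a mean of at least 5 CPM, with the 2 smallest p in each comparison. Vash2 with K+ ICN, Tubb6, Tuba4a and Kif2a were added after their values were seen. Gene positions are from RefSeq and transcript lengths from GENCODE vM21, both GRCm38. The gene most like Map1a over the libraries is not reported here.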

Additional observations from a re-analysis of the deposited data

How the results depend on the processing

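Of 540 recomputed fold changes of the 10 genes, 487 kept their direction and their side of the threshold, 18 lost a call, 26 gained one and 9 changed sign, none of them a called value. For Na+ ICN against PA, 3 genes rose and 1 fell with upper-quartile scaling and with pan-neuronal scaling, and 2 rose with limma voom. For K+ ICN against PA with pan-neuronal scaling, 1 rose and 3 fell, and for K+ against Na+ ICN 4 were lower. The cause was not tested. With a library left out, the count of risen genes for Na+ ICN was 1 to 2 and of fallen genes 1 to 2, that of fallen genes for K+ ICN 6 to 8, and that of genes lower with K+ than Na+ 4 to 7.

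Signs that changed were of values near 0. Map1b with Na+ ICN gave 0.019 (upper quartile), 0.033 (pan-neuronal), 0.00037 (limma voom), 0.018 (without PA replicate 2) and 0.014 (without Na+ ICN replicate 1), over a leave-one-out range of -0.013 to 0.018. Stmn2 with K+ ICN gave 0.036 and Dclk1 between the ions 0.0024 with pan-neuronal scaling. Stmn3 between the ions gave 0.013 without Na+ ICN replicate 1 and 0.0088 without K+ ICN replicate 3, over a range of -0.082 to 0.013. The log2 ratio difference of Mapt to Dcx with Na+ ICN gave 0.017 without Na+ ICN replicate 3 and 0.016 without PA replicate 1 (range -0.045 to 0.017), and Stmn3 to Stmn1 with K+ ICN gave 0.019 without K+ ICN replicate 3 (range -0.042 to 0.019). With exon unions as lengths, 4 of 10 genes kept their rank. The number of ratios without overlap was 16 to 17 of 21.

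Same-numbered replicates showed little shared deviation over all genes tested (correlations from -0.016 to 0.048). Genes with few counts weigh as much as others in these correlations, so they cannot exclude that the numbers pair libraries. A replicate term moved the split over all genes from 855 higher and 793 lower to 930 and 895 with Na+ ICN. With K+ ICN it moved from 1237 and 1166 to 1326 and 1286, and between the ions from 505 and 494 to 579 and 586. With the replicate block, 2 genes rose and 3 fell with Na+ ICN, 8 fell with K+ ICN, and 7 were lower with K+ than Na+.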
